A study of Mus musculus with 6 samples.

Results

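The genes described here are the 8 that make UDP-GlcNAc, recycle its sugar, or add and remove O-GlcNAc: Gfpt1, Gfpt2, Gnpnat1, Pgm3, Uap1, Nagk, Ogt and Oga. They were picked by gene symbol, with Oga listed under its older symbol Mgea5, and all 8 of them had a row in both tables, out of 14667 gene IDs in either table. The list was drawn up with results on these libraries in view, so the differences of its members from H3.3WT are given as descriptions, without p-values. RNA was measured by poly(A) RNA-seq in 6 libraries of NE-4C, a mouse neural stem cell line that lacks p53. All 3 groups, of 2 libraries each, are labelled as H3f3a knockouts, H3f3a being one of the genes for the histone variant H3.3, and all carried an HA-tagged H3.3. H3.3WT expressed the wild-type protein. Cbfa2t2_KO expressed the same wild-type protein after an additional knockout of the corepressor gene Cbfa2t2. H3.3K27M expressed the K27M form of H3.3, the substitution known from midline gliomas, with Cbfa2t2 left in place. The cells were grown in medium with glutamine and fetal bovine serum. The sources used here do not say whether a line is 1 clone, nor whether replicate libraries were grown as separate cultures, so the spread given below may be technical.

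The hexosamine pathway branches from glycolysis at fructose 6-phosphate. The GFPT enzymes join it with the amide nitrogen of glutamine, GNPNAT1 adds the acetyl group from acetyl-CoA, PGM3 moves the phosphate, and UAP1 adds UTP to give UDP-GlcNAc, the donor for N-glycans, proteoglycans and O-GlcNAc. OGT transfers single GlcNAc residues onto serine and threonine of nuclear and cytosolic proteins, OGA removes them, and cells are known to adjust the RNA of both enzymes to the amount of the mark, in part through introns that are held back in the nucleus. O-GlcNAc is abundant in brain, where it is found on chromatin regulators and transcription factors.

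Levels are FPKM, fragments normalised to transcript length and library size, a unit that corrects for length. Setting genes beside each other also assumes that gene values were built from transcripts alike. Oga alone of the 8 genes was listed with at most 6 decimals, whereas 72.5% of rows with Cbfa2t2_KO and 72.4% with H3.3K27M had more. Whether Oga was built differently was not tested, which limits comparing its level with those of other genes. Without counts in the tables the read depth is unknown. Summed FPKM was 363586 to 419389 per library, and log2 values across the 14082 shared genes correlated at r = 0.984 to 0.988 within a group and 0.945 to 0.978 between groups. Differences were fitted with limma on log2(FPKM + 1) (changes of low genes come out too small on this scale) and are called past the threshold where the Benjamini-Hochberg adjusted p over all genes tested was below 0.05. Both lines were set against the same 2 H3.3WT libraries, so their differences are not independent. The median log2 difference of all genes from H3.3WT was -0.11 in Cbfa2t2_KO and -0.12 in H3.3K27M, and under median-of-ratios scaling or quantile normalization no member changed direction against H3.3WT. Cbfa2t2 itself was at 1.38 and 1.35 FPKM in H3.3WT, 1.02 and 0.769 in Cbfa2t2_KO, and 2.02 and 0.855 in H3.3K27M, so its level did not separate the knockout libraries from the other line. H3f3a, labelled as knocked out in every group, was at 131 and 181 FPKM in H3.3WT, 82.1 and 66.3 in Cbfa2t2_KO, and 77.3 and 66.8 in H3.3K27M, so it was present in all 6 libraries and lower in both lines. Whether RNA of the introduced H3.3 was counted there was not tested. The neural stem cell markers Nes (14.3 to 38.8 FPKM) and Sox2 (9.55 to 34.4) were present in every library, and Pax6 was under 1 FPKM in all 6.

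The promoters of the 3 members that were higher in both lines, Ogt, Gfpt1 and Uap1, are shown because these genes moved in the same direction. Each is the 250 bases before the RefSeq start (GRCm38.p6), 5′ to 3′ on the gene's strand, with capitals on every match to the motifs listed after them. They lie at chrX:101639801-101640050 (forward strand) for Ogt, chr6:87042596-87042845 (forward) for Gfpt1 and chr1:170174965-170175214 (reverse) for Uap1.
Ogt: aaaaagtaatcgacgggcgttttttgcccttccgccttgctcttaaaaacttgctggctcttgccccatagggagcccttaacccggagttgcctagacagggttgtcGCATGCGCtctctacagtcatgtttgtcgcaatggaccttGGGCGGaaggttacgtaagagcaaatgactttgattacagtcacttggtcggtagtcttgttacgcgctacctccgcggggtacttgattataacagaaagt
Gfpt1: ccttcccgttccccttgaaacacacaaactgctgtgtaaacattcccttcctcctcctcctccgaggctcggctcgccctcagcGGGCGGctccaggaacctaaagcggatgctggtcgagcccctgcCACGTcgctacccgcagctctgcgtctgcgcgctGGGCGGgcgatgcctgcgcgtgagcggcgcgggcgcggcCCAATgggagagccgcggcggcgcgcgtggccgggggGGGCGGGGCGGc
Uap1: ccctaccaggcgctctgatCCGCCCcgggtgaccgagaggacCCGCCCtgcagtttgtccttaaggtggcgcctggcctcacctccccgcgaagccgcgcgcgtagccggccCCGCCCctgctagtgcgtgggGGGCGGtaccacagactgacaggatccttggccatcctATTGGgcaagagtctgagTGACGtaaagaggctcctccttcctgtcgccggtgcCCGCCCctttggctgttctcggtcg
The motifs searched on both strands were the CCAAT box (CCAAT, in 34.5% of 27025 promoters of this length), the GC box (GGGCGG, 32.9%), the core of the cAMP response element (TGACG, 17.9%), the core of the hypoxia response element (ACGTG, 16.6%), the E-box CACGTG (6.05%, each match of which also holds ACGTG) and GCATGCGC, an NRF1-type element (2.32%). Ogt held 1 GC box and 1 GCATGCGC, the rarest of these motifs. Gfpt1 held 4 GC boxes, 1 CCAAT and 1 ACGTG, and Uap1 held 5 GC boxes, 1 CCAAT and 1 TGACG. The 3 windows therefore had only the GC box in common. The windows of Gfpt2 (2 GC boxes, 2 CCAAT, 1 ACGTG), Pgm3 (5 GC boxes, 2 CCAAT) and Nagk (1 GC box) held it too, and that of Oga, the member that was lower in both lines, held none of the 6 motifs. All 7 members with an entry had more CpG dinucleotides, 8 (Gfpt2) to 32 (Gfpt1), than the median promoter, with 6. Matches describe letters in these windows and not sites in use.

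In both lines the gene-level RNA of Ogt was higher and that of Oga lower than in H3.3WT. The annotation holds 7 transcripts of Ogt, 2 of them protein-coding and 3 with a retained intron. For Oga it holds 6, of which 3 are protein-coding and 2 have a retained intron. FPKM per gene does not separate these, so the part of coding RNA in the differences is unknown. Ogt (ENSMUSG00000034160; GRCm38 chromosome X, 101640060 to 101684351, forward strand, up to 23 exons) was at 2.27 and 3.45 FPKM in H3.3WT, 14.4 and 9.14 in Cbfa2t2_KO, and 16.6 and 11.4 in H3.3K27M. The lowest library of either line was thus above both H3.3WT libraries. The means were 2.86 ± 0.84, 11.8 ± 3.7 and 14.0 ± 3.7 FPKM (SD, n = 2 each), a ratio of means of 4.11 for Cbfa2t2_KO and 4.90 for H3.3K27M over H3.3WT. On the log2(FPKM + 1) scale Ogt was higher by 1.71 ± 0.25 (SE) in Cbfa2t2_KO, the 41st largest positive difference of 11626 genes, and by 1.95 ± 0.24 in H3.3K27M, the 15th of 11623. Over the 15 settings tried for each line the differences ranged from 1.41 to 2.01 and from 1.67 to 2.26.

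Oga (ENSMUSG00000025220; chromosome 19, 45750259 to 45783837, reverse strand, up to 16 exons) had the highest listed level of the 8 genes in H3.3WT, at 44.4 and 54.3 FPKM. It was at 21.1 and 15.8 FPKM in Cbfa2t2_KO and at 18.7 and 13.6 in H3.3K27M. All 4 of those libraries lay below both H3.3WT libraries, and the ranges of the 2 lines overlapped each other. The means were 49.3 ± 7.0, 18.4 ± 3.7 and 16.1 ± 3.6 FPKM (SD, n = 2 each), which put Cbfa2t2_KO at 0.374 and H3.3K27M at 0.327 of H3.3WT. The log2 differences were -1.38 ± 0.18 and -1.56 ± 0.20 (SE), and ranked 222nd of 11626 and 111th of 11623 among negative differences. The antisense gene Gm15491 overlaps Oga, and without a stated strand its reads cannot be told apart from those of Oga. Gm15491 was listed at 0.676 to 1.51 FPKM over the 6 libraries, well below Oga in each of them.

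**Figure D1:**
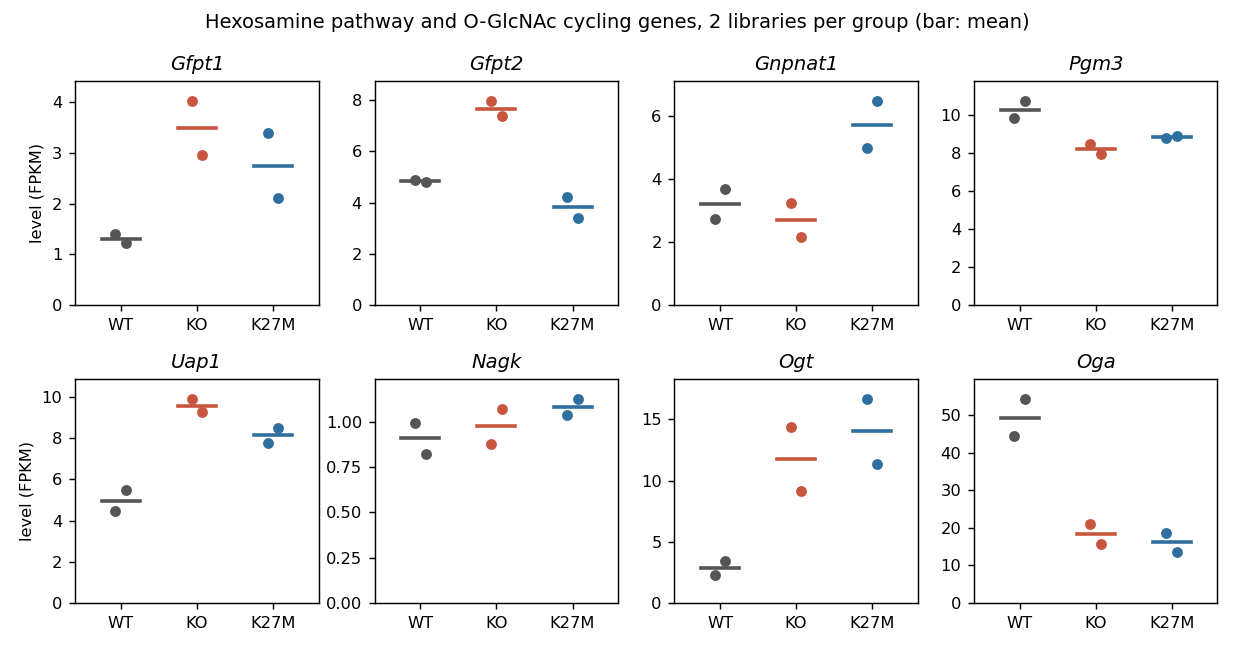
FPKM of the 8 genes in each library (points, 2 per group) with the group mean (bar), for H3.3WT (WT), Cbfa2t2_KO (KO) and H3.3K27M (K27M); each panel has its own linear axis from 0. Ogt, Gfpt1 and Uap1 lie higher in both lines than in H3.3WT and Oga lower, while Gfpt2 is highest in Cbfa2t2_KO and Gnpnat1 in H3.3K27M.

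The opposite differences of the writer and the eraser changed the balance of their gene-level RNA within each library. That balance does not depend on how libraries are scaled. Oga exceeded Ogt by 19.5 and 15.7 times in the H3.3WT libraries, by 1.46 and 1.73 times in Cbfa2t2_KO, and by 1.12 and 1.19 times in H3.3K27M. In no library did the listed FPKM of Ogt reach that of Oga, which compares 2 genes whose values may have been built differently. The ratio of Ogt to Oga was 0.0512 and 0.0636 in H3.3WT, 0.683 and 0.578 in Cbfa2t2_KO, and 0.892 and 0.838 in H3.3K27M, so the 3 groups did not overlap. The mean log2 of this ratio was higher than in H3.3WT by 3.46 in Cbfa2t2_KO and by 3.92 in H3.3K27M, and the lines differed by 0.46. With 1 FPKM added to each gene, which makes the value depend on scaling, these differences were 3.09, 3.52 and 0.43. No test is given, since 2 against 2 libraries allow an exact two-sided permutation p of 0.33 at the least. Within every group the library with more Ogt also had more Oga, and the ratio differed between the replicates of a group by 1.06 to 1.24 times.

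**Figure D2:**
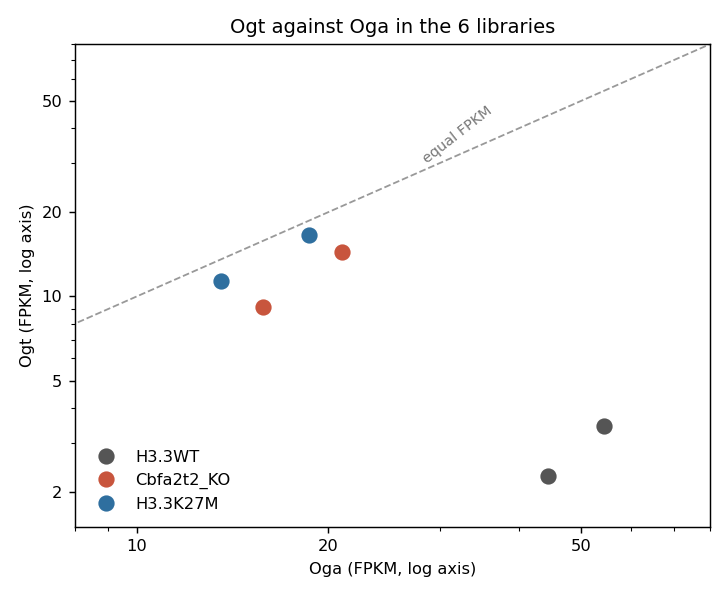
Ogt against Oga in the 6 libraries, both in FPKM on log axes, with a dashed line where the levels are equal. The H3.3WT libraries lie far below the line (Oga 19.5 and 15.7 times Ogt), and the 4 libraries of the other lines lie just under it.

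Of the other members, the enzyme pair at the entry of the pathway and the enzyme at its end were higher in Cbfa2t2_KO. Gfpt1 (ENSMUSG00000029992; chromosome 6, 87042846 to 87092197, forward strand), one of 2 genes for the rate-limiting amidotransferase, was at 1.40 and 1.22 FPKM in H3.3WT, 4.01 and 2.95 in Cbfa2t2_KO, and 3.39 and 2.11 in H3.3K27M. Both lines lay above H3.3WT without overlap, and overlapped each other. The ratio of means was 2.65 in Cbfa2t2_KO and 2.09 in H3.3K27M, with log2 differences of 0.94 ± 0.19 and 0.68 ± 0.21 (SE). Its paralog Gfpt2 (ENSMUSG00000020363; chromosome 11, 49794178 to 49838613, forward strand) was at 4.87 and 4.81 FPKM in H3.3WT, 7.94 and 7.36 in Cbfa2t2_KO, and 4.23 and 3.42 in H3.3K27M. Gfpt2 was thus higher than H3.3WT in Cbfa2t2_KO alone (log2 difference 0.57 ± 0.16), and lower, short of the threshold, in H3.3K27M (-0.28 ± 0.19). The FPKM of both genes added up to 6.27 and 6.03 in H3.3WT, 12.0 and 10.3 in Cbfa2t2_KO, and 7.62 and 5.53 in H3.3K27M. The sum was therefore higher in Cbfa2t2_KO, whereas in H3.3K27M it overlapped H3.3WT. The share of Gfpt1 in that sum was 22.4% and 20.3% in H3.3WT, 33.6% and 28.6% in Cbfa2t2_KO, and 44.5% and 38.2% in H3.3K27M.

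Uap1 (ENSMUSG00000026670; chromosome 1, 170141938 to 170174957, reverse strand), which makes UDP-GlcNAc in the last step, was at 4.46 and 5.47 FPKM in H3.3WT, 9.90 and 9.25 in Cbfa2t2_KO, and 7.75 and 8.51 in H3.3K27M. Its groups did not overlap, with log2 differences from H3.3WT of 0.83 ± 0.17 and 0.62 ± 0.19 (SE) and ratios of means of 1.93 and 1.64. The enzymes of the middle steps behaved differently. Gnpnat1 (ENSMUSG00000037722; chromosome 14, 45376334 to 45404913, reverse strand), the acetyltransferase, was at 2.74 and 3.67 FPKM in H3.3WT, 3.25 and 2.15 in Cbfa2t2_KO, and 4.98 and 6.46 in H3.3K27M. It was higher in H3.3K27M than in either other group (log2 difference from H3.3WT 0.68 ± 0.21), and Cbfa2t2_KO overlapped H3.3WT (-0.19 ± 0.21). Pgm3 (ENSMUSG00000056131; chromosome 9, 86554377 to 86571842, reverse strand), the mutase, was at 9.87 and 10.7 FPKM in H3.3WT, 8.51 and 7.95 in Cbfa2t2_KO, and 8.79 and 8.91 in H3.3K27M. Its log2 differences from H3.3WT were -0.29 ± 0.16 and -0.20 ± 0.17, and neither was past the threshold. Gnpnat1 overlaps Styx and Pgm3 overlaps Dop1a, each on the opposite strand, and shared reads of these pairs cannot be told apart. Nagk (ENSMUSG00000034744; chromosome 6, 83794982 to 83804018, forward strand), the kinase that returns free GlcNAc to the pathway, was the lowest of the 8 genes in every group. It was at 0.994 and 0.826 FPKM in H3.3WT, 0.881 and 1.07 in Cbfa2t2_KO, and 1.04 and 1.13 in H3.3K27M, and was not tested because its mean was under 1 FPKM.

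Over the 7 tested members, 4 were higher (Ogt, Gfpt1, Gfpt2 and Uap1) and 1 lower (Oga) past the threshold in Cbfa2t2_KO, where 34.6% of all genes passed, 13.1% higher and 21.5% lower. In H3.3K27M 4 were higher (Ogt, Gfpt1, Uap1 and Gnpnat1) and 1 lower (Oga), where 26.2% of all genes passed, 8.42% higher and 17.8% lower. Of all calls 37.9% and 32.1% were thus higher in the 2 lines, a share that became 50.8% and 49.0% under median-of-ratios scaling. Groups did not overlap for 6 of 7 members in Cbfa2t2_KO, against 70.4% of genes, and for 7 of 7 in H3.3K27M, against 66.3%. Nothing is read from these counts, since the members were chosen with these contrasts in view. The median log2 difference of the members was 0.57 and 0.62, beside -0.11 and -0.12 for all genes. The weaker differences depended on single libraries. The Gfpt2 difference in Cbfa2t2_KO fell short of the threshold without any one of the 4 libraries (0.52 to 0.61), as did that of Uap1 in H3.3K27M (0.50 to 0.74). In H3.3K27M the Gfpt1 difference fell short without H3.3WT replicate 1 (0.73), H3.3WT replicate 2 (0.62) or H3.3K27M replicate 1 (0.43), and the Gnpnat1 difference without H3.3WT replicate 1 (0.52), H3.3WT replicate 2 (0.84) or H3.3K27M replicate 2 (0.52).

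**Figure D3:**
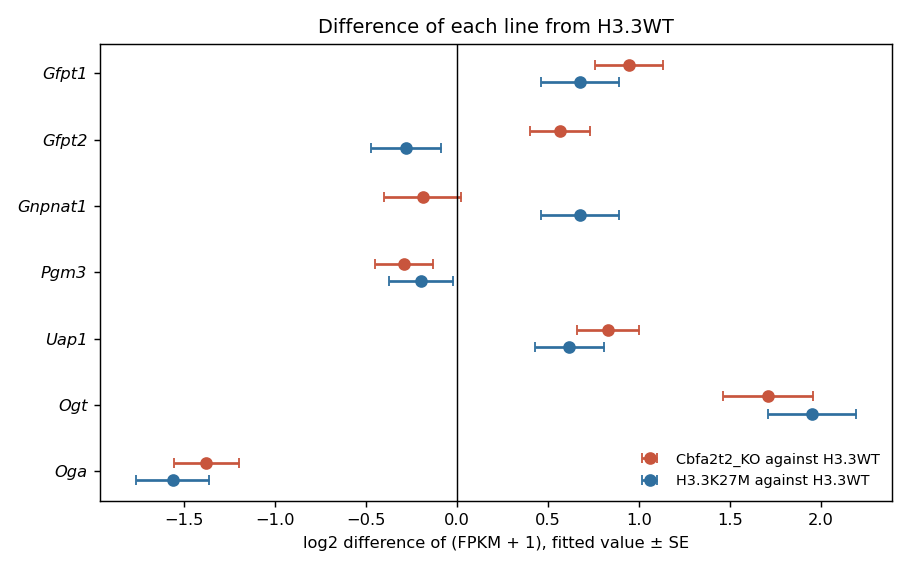
Log2 difference of (FPKM + 1) from H3.3WT for the 7 tested members, as the limma estimate with its SE, in Cbfa2t2_KO (red) and H3.3K27M (blue). Ogt lies farthest to the right (1.71 and 1.95) and Oga farthest to the left (-1.38 and -1.56), and the lines part at Gfpt2 and Gnpnat1.

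Set against each other in a fit of all 6 libraries, the 2 lines differed past the threshold at 2 of the 7 tested members, where 7.8% of 11601 genes did, 3.12% higher and 4.68% lower. Gfpt2 was lower in H3.3K27M than in Cbfa2t2_KO (log2 difference -0.85 ± 0.18, SE, ratio of means 0.500), and Gnpnat1 was higher (0.87 ± 0.22, ratio 2.11). Neither pair of groups overlapped, as was the case for 58.2% of all genes. The call of Gfpt2 was lost without Cbfa2t2_KO replicate 1 (-0.80) or replicate 2 (-0.90) and without H3.3K27M replicate 2 (-0.72), and that of Gnpnat1 passed in only 5 of 16 settings. For Ogt the difference between the lines was 0.24 ± 0.27, with a 95% interval of -0.36 to 0.84, and for Oga -0.19 ± 0.21 (-0.65 to 0.28), so neither direction was resolved. Gfpt1 (-0.27 ± 0.22), Uap1 (-0.21 ± 0.17) and Pgm3 (0.09 ± 0.16) also fell short.

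The order of the 8 genes by listed FPKM shifted with these differences. In H3.3WT the order was Oga, Pgm3, Uap1, Gfpt2, Gnpnat1, Ogt, Gfpt1 and Nagk, in which Uap1 and Gfpt2 overlapped, as did Gnpnat1 and Ogt. Ogt, the sixth in H3.3WT, stood next to Oga in both other lines. In Cbfa2t2_KO the order was Oga, Ogt, Uap1, Pgm3, Gfpt2, Gfpt1, Gnpnat1 and Nagk, with overlap between Ogt and Uap1 and between Gfpt1 and Gnpnat1. In H3.3K27M it was Oga, Ogt, Pgm3, Uap1, Gnpnat1, Gfpt2, Gfpt1 and Nagk, where only Oga and Ogt overlapped.

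The genes whose centred log2 profiles over the 6 libraries lay nearest to that of Ogt, among 10254 named genes, were Bhlhe40, Hsp90b1, Tdh, P4ha1 and Acat2, with Euclidean distances of 0.637, 0.663, 0.708, 0.716 and 0.732. Bhlhe40, a transcriptional repressor, was at 7.99 and 9.62 FPKM in H3.3WT, 34.9 and 37.6 in Cbfa2t2_KO, and 37.9 and 30.4 in H3.3K27M. Hsp90b1, the endoplasmic reticulum chaperone GRP94, was at 37.8 and 32.6, 159 and 99.9, and 133 and 146 FPKM in the same order. Tdh is a threonine dehydrogenase, P4ha1 a collagen prolyl hydroxylase subunit and Acat2 an acetyl-CoA acetyltransferase. All 5 were low in both H3.3WT libraries and high in the other 4, with Pearson correlations to Ogt of 0.947 to 0.959 over 6 libraries. Both follow from picking them for nearness to Ogt and are not separate results. None of them was among the 5 nearest when genes were ranked by correlation.

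Genes around the pathway were described from lists of its neighbouring steps. These lists, too, were chosen with earlier results of these data known. The adjusted p-values in this and the following paragraphs are therefore descriptions and not independent tests. Renbp, Gpi1 and Glul in Cbfa2t2_KO were picked after their values were seen and are given there without p-values. Of 7 tested genes for the salvage and return of amino sugars, 4 rose and none fell in Cbfa2t2_KO, with a median log2 change of 0.73, and 2 rose in H3.3K27M, with a median of 0.37, beside medians of -0.11 and -0.12 for all genes, of which 34.6% and 26.2% passed. Gnpda1, the deaminase that turns glucosamine 6-phosphate back into fructose 6-phosphate and so runs opposite to the GFPT step, rose from 7.30 ± 1.1 FPKM in H3.3WT to 20.6 ± 0.43 in Cbfa2t2_KO (SD, n = 2; log2 change 1.39 ± 0.16, limma adjusted p = 0.0012) and 13.8 ± 1.3 in H3.3K27M (0.84 ± 0.19, limma adjusted p = 0.015). Renbp, which interconverts GlcNAc and N-acetylmannosamine, rose in Cbfa2t2_KO from 74.4 ± 11 to 124 ± 13 FPKM (log2 change 0.73). Its call was lost without Cbfa2t2_KO replicate 2 (0.62). Naglu, a lysosomal enzyme, rose there from 6.63 ± 2.5 to 11.7 ± 1.6 FPKM (limma adjusted p = 0.040). The list count in Cbfa2t2_KO was 2 without its replicate 2, and that in H3.3K27M was 1 without either H3.3WT library or H3.3K27M replicate 1, each of which the Gnpda1 call needed (limma adjusted p of 0.109 without H3.3WT replicate 1). The Naglu call passed in 12 of 15 settings and was lost without H3.3WT replicate 2 or either Cbfa2t2_KO library.

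At the supply side, 4 of 10 genes for fructose 6-phosphate and glutamine rose and 4 fell in Cbfa2t2_KO (median -0.09). In H3.3K27M 2 rose and 1 fell (median 0.08). Those passing were 80% and 30%, beside 34.6% and 26.2% of all genes. The glucose transporter genes Slc2a1 and Slc2a3 were among the rises in Cbfa2t2_KO, and Slc2a1 among those in H3.3K27M. Gpi1, which makes fructose 6-phosphate, rose from 89.7 ± 12 to 174 ± 20 FPKM in Cbfa2t2_KO (SD, n = 2, log2 change 0.95). It was at 132 ± 9.9 FPKM in H3.3K27M (0.56, limma adjusted p = 0.047). The H3.3K27M difference was past the threshold in 7 of 15 settings and lost without any one library. Slc38a1, a glutamine transporter, fell in Cbfa2t2_KO from 25.2 ± 14 to 11.1 ± 0.13 FPKM (limma adjusted p = 0.046), a call kept in only 5 of 15 settings. Glul, which makes glutamine, fell from 63.8 to 43.2 FPKM in Cbfa2t2_KO (-0.55) and to 43.0 in H3.3K27M (-0.56, limma adjusted p = 0.035). Both calls were lost under median-of-ratios scaling and without H3.3WT replicate 2 or replicate 2 of the line compared. The first was also lost without Cbfa2t2_KO replicate 1, and the second without H3.3WT replicate 1 and under quantile normalization. The count of 8 in Cbfa2t2_KO was 3 to 5 when 1 library was left out, and that of 3 in H3.3K27M was 0 without either H3.3WT library.

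Of 8 tested genes leading from UDP-GlcNAc to sialic acid or UDP-GalNAc, 2 rose and 2 fell in Cbfa2t2_KO (median 0.13). In H3.3K27M 1 rose and 1 fell (median -0.03). The shares passing were 50% and 25%, beside 34.6% and 26.2% of all genes. Slc35d1, a nucleotide sugar transporter of the endoplasmic reticulum, fell from 1.85 FPKM to 0.383 (limma adjusted p = 0.0024) and 0.355 (limma adjusted p = 0.0043). Nanp, the sialic acid phosphatase, fell in Cbfa2t2_KO from 6.12 to 2.48 FPKM (limma adjusted p = 0.011), a call that needed replicate 2 of both groups (limma adjusted p = 0.066 without that of H3.3WT and 0.079 without that of Cbfa2t2_KO). The counts of 4 and 2 were at the lowest 2 and 0 when 1 library was left out.

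Other enzymes that spend UDP-GlcNAc were read beside all genes, of which 13.1% rose and 21.5% fell in Cbfa2t2_KO, and 8.42% rose and 17.8% fell in H3.3K27M. None of 11 tested genes for N-glycan assembly rose in either line, while Alg1, Mgat2 and Alg11 fell in Cbfa2t2_KO (median of the list -0.01) and Alg1 and Mgat1 in H3.3K27M (median -0.18). Each of these falls was lost on leaving out at least one library of its comparison, and the counts of 3 and 2 were 0 without either H3.3WT library. Under both median-of-ratios scaling and quantile normalization, Alg1 (limma adjusted p = 0.141 and 0.118) and Mgat2 (0.121 and 0.097) no longer passed in Cbfa2t2_KO, nor did Mgat1 (0.066 and 0.089) in H3.3K27M. Of 17 other GlcNAc transferases, 2 rose and 2 fell in Cbfa2t2_KO (median -0.24), and 1 fell in H3.3K27M (median -0.24). Pomgnt1, which extends O-mannose glycans, rose in Cbfa2t2_KO from 5.50 ± 0.29 to 12.0 ± 0.24 FPKM (SD, n = 2; log2 change 1.00 ± 0.16, limma adjusted p = 0.0031), and Gcnt1, which branches mucin-type O-glycans, fell from 1.87 to 0.561 (limma adjusted p = 0.0062). The Notch-modifying Rfng rose in Cbfa2t2_KO (0.66, limma adjusted p = 0.030) and Lfng fell in H3.3K27M (-0.76, limma adjusted p = 0.021). The Rfng call held without H3.3WT replicate 2 and the Lfng call without H3.3K27M replicate 1, and both were lost without any other library of their comparison. With 1 library left out, the counts of 4 and 1 were at the lowest 2 and 0. Eogt, which places O-GlcNAc on extracellular domains, passed in neither line.

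Of 9 tested protein partners of OGT, 4 fell in Cbfa2t2_KO (median -0.44) and 3 in H3.3K27M (median -0.50), and none rose. Those passing were 44.4% and 33.3%, beside 34.6% and 26.2% of all genes. Asxl1, a subunit of the BAP1 deubiquitinase complex, fell from 49.0 ± 4.2 FPKM to 23.9 ± 3.7 in Cbfa2t2_KO (SD, n = 2; log2 change -1.01 ± 0.16, limma adjusted p = 0.0029) and 21.8 ± 5.7 in H3.3K27M (-1.15 ± 0.20, limma adjusted p = 0.0061), past the threshold in all 15 settings for each line. Sin3a, a corepressor scaffold, fell from 35.1 ± 0.54 FPKM to 18.9 ± 3.5 (limma adjusted p = 0.0059) and 22.1 ± 3.9 (limma adjusted p = 0.030, lost under either scaling and without H3.3WT replicate 1 or 2 or H3.3K27M replicate 2). Trak1, a mitochondrial adaptor, fell in Cbfa2t2_KO from 4.19 to 2.14 FPKM (limma adjusted p = 0.015, lost without H3.3WT replicate 1 or 2 or Cbfa2t2_KO replicate 1). Tet1, Tet3 and Bap1 passed in neither line. The count in Cbfa2t2_KO was 2 without either H3.3WT library, and that in H3.3K27M was 1 without H3.3WT replicate 1.

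Hcfc1, the cell cycle regulator that OGT cleaves, separated the 2 lines. It was at 59.5 and 46.1 FPKM in H3.3WT, 45.7 and 43.5 in Cbfa2t2_KO, and 27.3 and 17.6 in H3.3K27M. Only the H3.3K27M libraries lay well below the other 4. Hcfc1 fell in H3.3K27M (log2 change -1.22 ± 0.23, limma adjusted p = 0.0078, lost without H3.3WT replicate 1, adjusted p = 0.060), and did not pass in Cbfa2t2_KO (-0.23, limma adjusted p = 0.29). Compared directly it was lower in H3.3K27M than in Cbfa2t2_KO by a log2 difference of -0.99 ± 0.22 (limma adjusted p = 0.032), past the threshold in 14 of 17 settings and short of it without Cbfa2t2_KO replicate 1 (-0.96), Cbfa2t2_KO replicate 2 (-1.02) or H3.3K27M replicate 2 (-0.69).

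Among 6 transcription factors known to carry O-GlcNAc, 3 fell in Cbfa2t2_KO (median -0.37) and 2 in H3.3K27M (median -0.27), which is 50% and 33.3% of them beside 34.6% and 26.2% of all genes, and none rose. Sp1 fell from 11.8 ± 1.8 FPKM to 5.37 ± 1.8 in Cbfa2t2_KO (SD, n = 2; log2 change -1.03 ± 0.22, limma adjusted p = 0.011) and 6.66 ± 0.55 in H3.3K27M (-0.74 ± 0.19, limma adjusted p = 0.024). The first call fell away when replicate 2 of either Cbfa2t2_KO or H3.3WT was left out, and the second without any library but H3.3K27M replicate 1 and under quantile normalization. Yy1 fell in Cbfa2t2_KO from 22.0 ± 0.45 to 11.3 ± 2.5 FPKM (limma adjusted p = 0.0068, kept in all 15 settings). Nfe2l1, which drives proteasome genes, fell from 24.6 ± 0.16 to 9.60 ± 2.9 FPKM in H3.3K27M (-1.30 ± 0.21, limma adjusted p = 0.0048, kept in all 15 settings), and was at 17.7 ± 0.52 in Cbfa2t2_KO (-0.45, limma adjusted p = 0.037, past the threshold in 6 of 15 settings and lost without any one library and under both scalings). With 1 library left out, the counts of 3 and 2 were at the lowest 1 and 1.

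**Figure D4:**
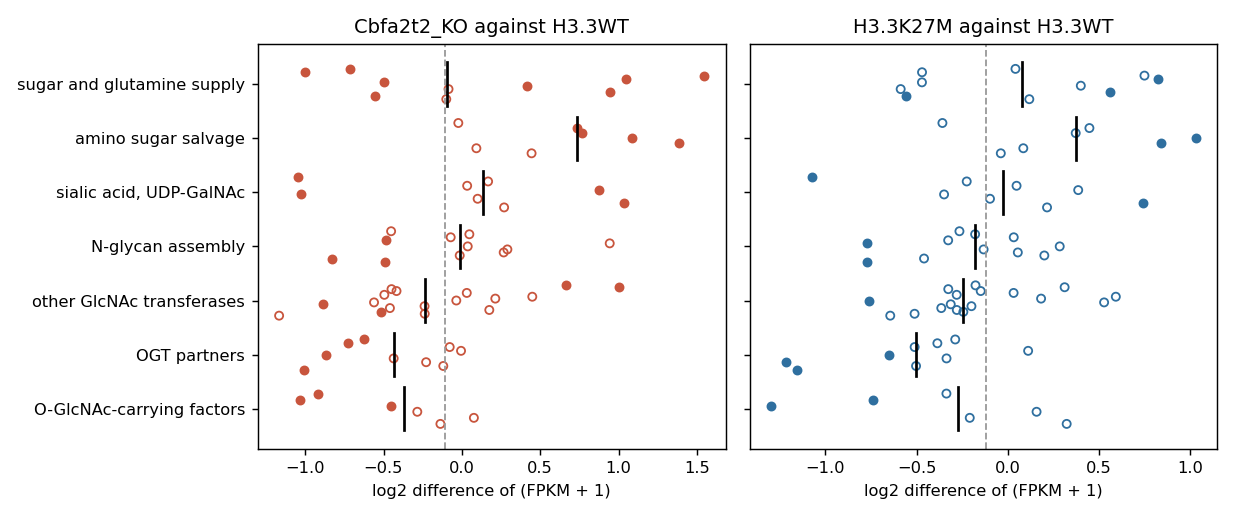
Log2 difference of (FPKM + 1) from H3.3WT for each tested gene of the 7 lists around the pathway, in Cbfa2t2_KO (left) and H3.3K27M (right); filled points passed the threshold, black bars are list medians and the dashed line is the median of all genes. Amino sugar salvage has the highest medians (0.73 and 0.37) and the OGT partners the lowest (-0.44 and -0.50).

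Other measures moved together with these differences. Of 9 tested immediate early and heat shock genes, which respond to how cultures are handled, 7 fell in each line, with medians of -1.29 and -1.02. Among all genes 21.5% fell in Cbfa2t2_KO and 17.8% in H3.3K27M, with medians of -0.11 and -0.12. Egr1, Ier2 and Junb were among the 7 in both lines. Egr1 stood at 173 and 273 FPKM in H3.3WT, 7.55 and 7.59 in Cbfa2t2_KO, and 5.97 and 6.43 in H3.3K27M. The count of 7 in H3.3K27M was 3 without H3.3WT replicate 2 and 4 without H3.3K27M replicate 2. For Ogt, Oga, Gfpt1 and Uap1, which differed in both lines, a change in the lines and a particular state of the 2 H3.3WT libraries that they share cannot be told apart. The neuronal gene Tubb3 was at 123 and 139 FPKM in Cbfa2t2_KO and at 67.4 to 71.6 in the other 4 libraries, as Gfpt2 was also highest in Cbfa2t2_KO. The other neuronal markers with a row did not follow Tubb3. Rbfox3 was at 1.83 and 1.64 FPKM in H3.3WT, 1.18 and 1.14 in Cbfa2t2_KO, and 0.702 and 0.571 in H3.3K27M, and Syt1 (0.683 to 1.18) overlapped between groups. The summed level of these 3 of 6 neuronal markers, 125 to 141 FPKM in Cbfa2t2_KO and 69.8 to 73.0 elsewhere, was nearly all Tubb3. Neural stem cell markers, 6 of 8 with a row, moved in both directions. Nes was at 35.2 and 38.8 FPKM in H3.3WT, 24.0 and 18.1 in Cbfa2t2_KO, and 16.8 and 14.3 in H3.3K27M, while Vim was at 10.3 and 12.1, 27.3 and 26.5, and 34.6 and 41.8. Prom1 was higher in both lines (5.78 to 7.61 against 2.84 and 3.29). Msi1 (9.64 to 12.8 against 17.1 and 17.0) and Pax6 (0.232 to 0.378 against 0.926 and 0.926) were lower. Sox2 was low in Cbfa2t2_KO alone (9.55 and 12.3 against 28.1 to 34.4). The sum of the 6 stem cell markers was 72.9 to 84.3 FPKM in Cbfa2t2_KO and 97.6 to 106 elsewhere. The single astrocyte marker with a row, Aldh1l1, was at 2.36 and 1.64 FPKM in H3.3WT and 5.09 to 5.62 in the 4 libraries of the lines, and the single endothelial marker, Tek, at 0.258 and 0.157 and at 0.364 to 0.689. Both were thus higher in both lines, as Ogt was. The oligodendrocyte marker Mbp was highest in Cbfa2t2_KO, at 2.91 and 2.12 FPKM. It was at 1.19 to 1.97 in the other 4 libraries, with overlap of H3.3K27M and H3.3WT. The 4 of 5 mesenchymal markers with a row summed to 9.91 to 13.7 and moved in both directions. Col3a1 was higher in both lines (1.96 to 2.18 against 0.619 and 0.582) and Pdgfrb lower (0.883 to 1.65 against 3.02 and 2.73). Thy1 was highest in H3.3K27M (8.34 and 9.99 against 5.93 to 7.59), and Col1a2 (0.686 to 1.02) overlapped between groups. The part of all these measures in the differences of the members was not tested.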

How the data were processed

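Values were FPKM per gene as deposited by the authors in 2 tables. The table with Cbfa2t2_KO held 14431 genes and that with H3.3K27M 14318, and the H3.3WT columns were identical in both for all 14082 genes they shared. Per the submitters' processing notes, Trim Galore, HISAT2, StringTie and DESeq were used with GRCm38. Versions and the annotation release are not given in the sources used here, nor is how transcript values were combined into gene values. Rows whose highest library was under 0.500 FPKM did not occur. RNA was extracted with Trizol, captured on oligo(dT) and primed at random. Columns were assigned to groups by name. Those of H3.3K27M carried no sample label, and were assigned by the letter M and by K27M in the name of their table.

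A gene was tested where its mean reached 1 FPKM. The test was limma 3.58.1 on log2(FPKM + 1) (R 4.3.3, eBayes with trend), with Benjamini-Hochberg adjustment over all genes at 0.05, over 4 libraries for a line against H3.3WT and over all 6 for the lines against each other. The members, the gene lists and the rule for named genes were chosen with earlier results of these data known. The rule named every member, up to 3 genes per list and comparison that passed without overlap, by size of change, and kept Slc2a1 and Slc2a3 out unless a result on the members turned on them. It also named the 5 genes nearest to Ogt. Some genes that the rule named are not reported here. Renbp, Gpi1 and Glul in Cbfa2t2_KO, and genes named as not passing, were chosen after their values were seen. Alternatives covered the pseudocount, the filter, scaling, the variance model, the libraries fitted, leaving out each library, and a correction for length and GC content. A correction that also took exon number was added after seeing the data. Coordinates came from GENCODE vM21, which held 14646 of 14667 IDs, and promoters from RefSeq, which held 7 of 8 members. Figures were drawn with matplotlib 3.10.9.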

Additional observations from a re-analysis of the deposited data

Results flagged for a closer look

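For 2 members the lines differed from each other in the direct comparison of H3.3K27M with Cbfa2t2_KO. Gfpt2 was lower in H3.3K27M by a log2 difference of -0.85, and fell short of the threshold without Cbfa2t2_KO replicate 1 or 2 or H3.3K27M replicate 2. Gnpnat1 was higher in H3.3K27M by 0.87, and passed in only 5 of 16 settings. Its values of 4.98 and 6.46 FPKM lay above the 4 libraries of the other groups (2.15 to 3.67).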

How the results depend on the processing

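No paired analysis was possible because the labels give the libraries no replicate numbers. With 2 libraries a group and unknown depth, counts of calls depended on single libraries. Leaving out 1 library gave 1915 to 3038 calls in Cbfa2t2_KO against H3.3WT (4028 with all), 1007 to 2790 in H3.3K27M against H3.3WT (3049) and 29 to 786 between the lines (905). The last was 554 in a fit of only the 4 libraries compared, 1404 with a correction for length and GC content and 1489 with exon number added. The lone library of a group was assumed to vary like the others. Members called were 4 to 4 of 5 in Cbfa2t2_KO, 2 to 3 of 5 in H3.3K27M and 0 to 1 of 2 between the lines. In H3.3K27M they were 3 with no filter and with a mean of at least 5 FPKM, which leaves out Gfpt1, Gfpt2 and Gnpnat1. Between the lines they were 1 with a pseudocount of 0.1, no filter, a mean of at least 5 FPKM, only 4 libraries, and both corrections. With 1 FPKM added, leaving out a library gave differences in the log2 ratio of Ogt to Oga from H3.3WT of 2.98 to 3.19 in Cbfa2t2_KO. They were 3.44 to 3.60 in H3.3K27M, and 0.32 to 0.53 between the lines. Without a pseudocount and with all libraries, the differences from H3.3WT were 3.46 and 3.92. The log2 difference of Ogt alone from H3.3WT was 1.41 to 2.01 and 1.70 to 2.21 on leaving out a library. Signs turned for members near 0. Leaving out a library gave -0.41 to 0.027 for Gnpnat1 in Cbfa2t2_KO, turned without Cbfa2t2_KO replicate 2. Between the lines it gave -0.40 to 0.030 for Oga, turned without Cbfa2t2_KO replicate 1 (0.01) or H3.3K27M replicate 2 (0.030), and -0.058 to 0.54 for Ogt, turned without Cbfa2t2_KO replicate 2 (-0.058) or H3.3K27M replicate 1 (-0.01). Pgm3 was -0.11 there under both corrections. The cause of these was not tested. No other named gene changed direction under any setting in the comparisons where its change is given. Over all alternatives, 256 of the members' values kept direction and side of the threshold, 35 fell short of it, 3 newly passed and 7 turned.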

Other observations

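Ogt lies on chromosome X. Among 392 tested genes of that chromosome 65 rose and 56 fell in Cbfa2t2_KO, with a median log2 change of 0.03 beside -0.11 for all genes. That is 30.9% passing, beside 34.6% of all genes (13.1% higher and 21.5% lower). In H3.3K27M 62 of 394 rose and 34 fell, with a median of 0.09 beside -0.12. There 24.4% passed, beside 26.2% of all genes (8.42% higher and 17.8% lower).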
